A study of Rattus norvegicus with 9 samples.

Results

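The 9 genes described here belong to the machinery that displays peptides to T cells: Cd74, RT1-Da, RT1-Ba, RT1-Bb, RT1-Db1 and RT1-DMb of the class II pathway, and B2m, Tap1 and Tap2 of the class I pathway. They were chosen by name, with earlier results of these data known. Every probe set that the platform annotation pairs with these symbols was taken. This gave 16 probe sets of the 31042 on the array, and 9 of the 14217 genes named there. A probe set is a group of short DNA probes that read 1 transcript together. Of the 16 probe sets, 14 were bright enough to be tested, and a second RT1-Bb probe set (1371065_at) and a second Tap1 probe set (1375379_at) lay in the dimmest 33.3% of the array and were not tested.

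Islets were isolated from the pancreas of male Zucker Diabetic Fatty (fa/fa) rats, which lack a working leptin receptor and turn obese and diabetic, and all of them ate the Purina 5008 diet. Rosiglitazone activates the nuclear receptor PPAR gamma and is used against diabetes. The treated rats ate powdered tablets of it mixed into this diet (3 mg for each kg of body weight) between weeks 5 and 9 of life, and their islets were taken at week 9. The withdrawal rats had the same course, then 2 weeks without the drug, and their islets were taken at week 11, while the untreated rats never had it and were used at week 13. Each group had 3 Affymetrix Rat Genome 230 2.0 arrays from 24 randomised animals, and how many animals stood behind an array is not given in the sources used here. Age and treatment differed together, so their parts in any difference cannot be told apart.

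Class II molecules are pairs of an alpha and a beta chain that carry peptides made in endosomes to the cell surface, where CD4+ T cells read them. They are made mainly by dendritic cells, macrophages and B cells, so in an islet they are usually a mark of its resident immune cells. Class I molecules are made by nearly all nucleated cells: B2m is their light chain, and the transporter of Tap1 and Tap2 brings them peptides from the cytosol. Interferon gamma raises the genes of both pathways, the class II genes through the transactivator Ciita.

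The deposited values are on a log2 scale, on which a difference of 1 is a 2-fold change. Array medians lay between 5.736 and 5.805, but the spread over probe sets ran from a standard deviation of 1.654 to 2.001. It was 2.001, 1.842 and 1.856 on treated arrays 1, 2 and 3 and at most 1.775 on the withdrawal and untreated arrays, so bright and dim probe sets lay further apart on every treated array, and furthest on the first. Forcing all arrays to 1 distribution (quantile normalization) moved the median difference of all tested probe sets from 0.16 to 0.02 for treated minus untreated and from -0.19 to -0.03 for withdrawal minus treated. Values after that step are therefore given beside the deposited ones. Islet identity was read from 11 hormone and beta cell genes, all above the dimmest 33.3%, whose mean was 11.24 to 12.31 over the arrays. The 8 measured acinar markers, genes of the exocrine pancreas, had a mean of 13.79 to 13.97, so RNA of exocrine tissue was in every sample. In such bulk RNA, fewer cells of a type and less RNA per cell cannot be told apart.

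In 7 probe sets of class II genes, withdrawal islets read higher than untreated islets on every array, by 0.49 to 0.75 on the log2 scale. Of all tested probe sets, 7.65% were higher after withdrawal without overlap. Other probe sets of RT1-Ba and RT1-Bb did not share this, and 1392334_at of RT1-Ba was lower without overlap. The 7 probe sets spread over 1.62 to 2.29 log2 units within the treated group, the first treated array above all others and the second near or below the untreated ones. With all 9 arrays in 1 limma fit, none of the 14 tested probe sets passed an adjusted p of 0.05 in any comparison of groups. When only withdrawal and untreated arrays were fitted, 1 probe set each of RT1-Ba, RT1-Db1, RT1-DMb, RT1-Da and RT1-Bb passed and was higher after withdrawal. In that fit 2.39% of all tested probe sets passed, and 0.831% of all passed and were higher. Without the second withdrawal array none of the 14 passed in it.

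Cd74 is the invariant chain, the chaperone that fills the groove of new class II molecules and guides them to endosomes. Its probe set (1367679_at) read 11.93, 10.31 and 11.15 on treated arrays 1, 2 and 3, then 10.98, 11.02 and 11.40 after withdrawal, and 10.59, 10.29 and 10.77 in untreated islets. The 3 withdrawal values lay above the 3 untreated values with no overlap, while the treated values spanned both groups. Withdrawal minus untreated was 0.58 ± 0.31 (SE, n = 3 arrays a group; limma adjusted p = 0.748), and treated minus untreated was also 0.58 ± 0.31 (adjusted p = 0.177).

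RT1-Da and RT1-Db1 encode the alpha and beta chains of the RT1-D molecule, the rat counterpart of human HLA-DR. RT1-Da (1370883_at) read 11.91, 9.95 and 10.94 on the treated arrays, 10.84, 10.90 and 11.28 after withdrawal and 10.38, 10.04 and 10.55 without treatment. As in Cd74, the first treated array was highest and the withdrawal arrays did not overlap with the untreated ones, and here the second treated array was the lowest of all 9. RT1-Db1 has a pair of probe sets. The brighter one (1370383_s_at) read 10.34, 8.53 and 9.49, then 9.58, 9.65 and 9.85, and then 8.99, 8.70 and 9.18 in the same order of groups. The dimmer one (1370382_at) read 9.12, 6.83 and 7.23, then 7.35, 7.56 and 7.75, and then 7.09, 6.88 and 7.23. Both RT1-Db1 probe sets put the withdrawal arrays above the untreated arrays, and in both the first treated array was the highest of the 9.

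Withdrawal minus untreated was 0.68 ± 0.36 for RT1-Da (limma adjusted p = 0.747), and 0.73 ± 0.33 (adjusted p = 0.662) and 0.49 ± 0.43 (adjusted p = 0.861) for the RT1-Db1 probe sets. The suffix of 1370383_s_at marks probes shared by several transcripts, and RT1 genes have near-identical copies, so the assignment of these signals to 1 gene is uncertain.

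RT1-Ba and RT1-Bb encode the alpha and beta chains of RT1-B, the counterpart of human HLA-DQ. RT1-Ba (1370822_at) read 10.50, 8.71 and 9.73 on treated arrays, 9.66, 9.84 and 9.90 after withdrawal and 8.99, 8.84 and 9.33 in untreated islets. RT1-Bb (1371033_at) read 11.28, 9.27 and 10.33, then 10.29, 10.34 and 10.58, and then 9.91, 9.39 and 9.92. For both chains the second treated array was the lowest of the 9, the withdrawal values lay close together, and they did not overlap with the untreated ones. Withdrawal minus untreated was 0.75 ± 0.33 for RT1-Ba (limma adjusted p = 0.652) and 0.66 ± 0.37 for RT1-Bb (adjusted p = 0.764).

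The other probe sets of RT1-Ba did not follow this pattern. In 1381593_x_at the values were 8.36, 8.58 and 8.39 on treated arrays, 8.46, 8.73 and 8.69 after withdrawal and 8.77, 8.69 and 8.75 without treatment. In 1392334_at they were 8.13, 8.82 and 8.49, then 8.37, 8.51 and 8.59, and then 8.69, 8.64 and 8.72. In both of these the first treated array was the lowest of all 9, where it was the highest in 1370822_at, and withdrawal minus untreated was -0.11 and -0.19. They share 1 transcript accession in the platform annotation, so they are not independent of each other. A dim RT1-Ba probe set (1377334_at) stayed between 4.96 and 5.46 on all arrays, and the untested RT1-Bb probe set (1371065_at) between 4.49 and 4.84. Statements on RT1-Ba below are for 1370822_at unless another is named.

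RT1-DMb is the beta chain of DM, which swaps peptides into the class II groove. Its probe set (1370882_at) read 9.78, 8.02 and 8.69 on the treated arrays, 8.70, 8.71 and 8.89 after withdrawal, and 8.0, 7.99 and 8.35 without treatment. The withdrawal arrays were within 0.19 log2 units of each other and all above the untreated ones. The differences were 0.72 ± 0.32 for treated minus untreated (limma adjusted p = 0.113) and 0.66 ± 0.32 for withdrawal minus untreated (adjusted p = 0.715).

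**Figure D1:**
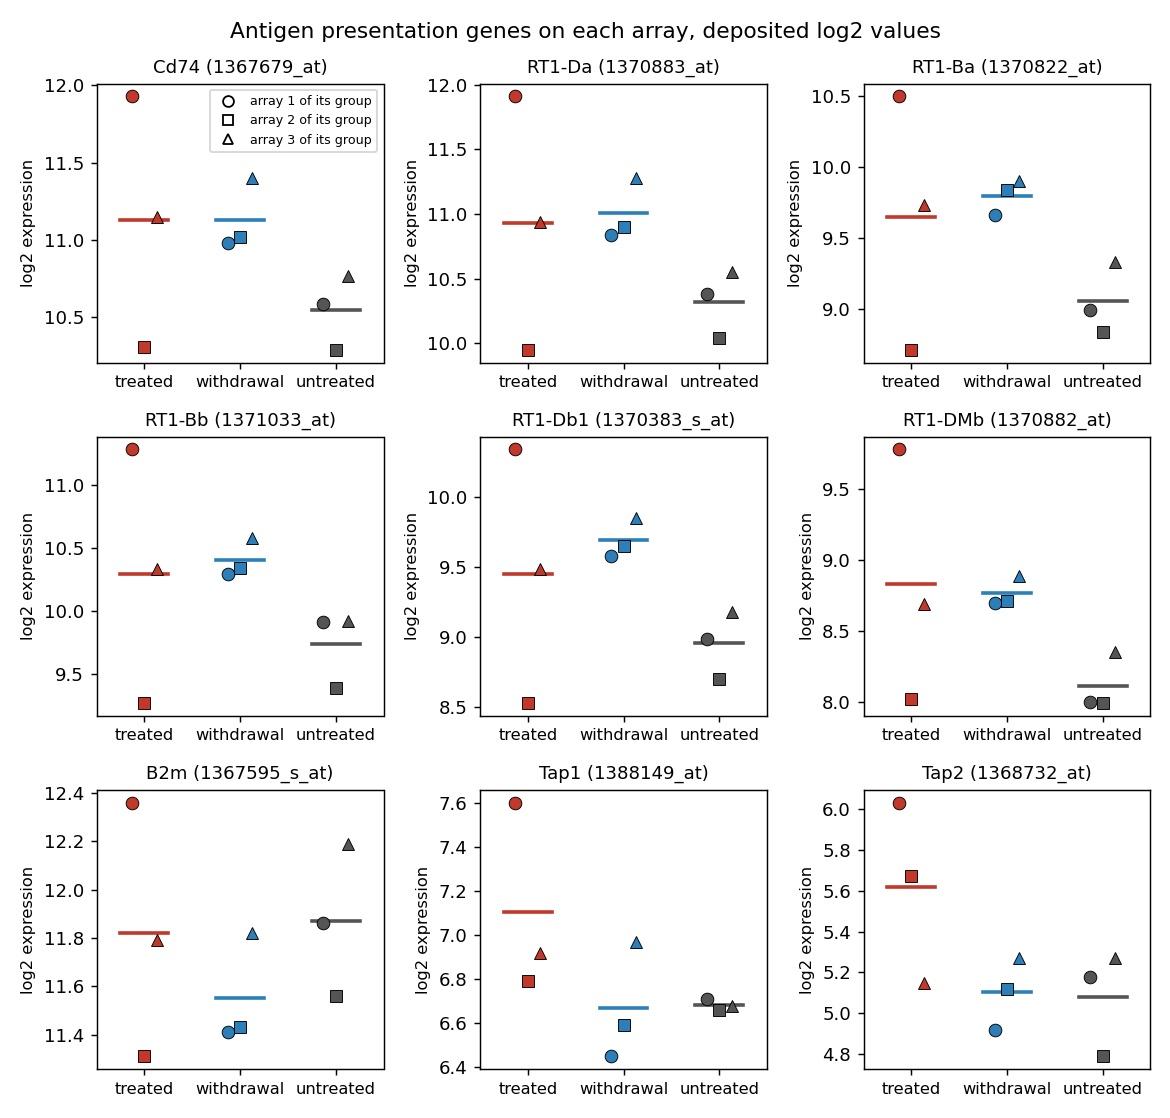
Deposited log2 values (vertical axis, log2 expression) of 1 probe set of each of the 9 genes on the 3 treated, 3 withdrawal and 3 untreated arrays; the symbol gives the array number and the bar the group mean. In the class II genes the withdrawal arrays lie above the untreated arrays and the treated arrays span both, whereas the B2m groups overlap.

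Withdrawal and untreated arrays were compared over all members. No overlap with withdrawal higher was seen in 7 of the 14 tested probe sets, those of Cd74, RT1-Da, RT1-Ba, RT1-Bb, RT1-Db1 and RT1-DMb described above, against 7.65% of all tested probe sets. With withdrawal lower, 1392334_at of RT1-Ba was without overlap, as were 10.3% of all. In the limma fit of all 9 arrays 0 of the 14 were called, where 0.159% of all tested probe sets were, and 2 of the 14 and 1553 of all 20695 had an unadjusted p under 0.05. The median difference of the 14 was 0.29, beside -0.02 over all tested probe sets.

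The spread that this fit shares over the groups includes that of the treated arrays. With only the 6 withdrawal and untreated arrays in the fit, 5 of the 14 were called, all higher after withdrawal, where 2.39% of all tested probe sets were called and 0.831% higher. RT1-Ba differed by 0.75 ± 0.13 (limma adjusted p = 0.00887) and RT1-Db1 (1370383_s_at) by 0.73 ± 0.13 (adjusted p = 0.00916). RT1-DMb followed with 0.66 ± 0.12 (adjusted p = 0.0121), RT1-Da with 0.68 ± 0.15 (adjusted p = 0.0266) and RT1-Bb with 0.66 ± 0.15 (adjusted p = 0.03). Cd74 missed the threshold (adjusted p = 0.0515), as did the dimmer RT1-Db1 probe set (adjusted p = 0.0717). The count of calls changed with single arrays. Without withdrawal arrays 1, 2 or 3 it was 2, 0 and 3 of the 14, where 0.894%, 0.561% and 2.09% of all tested probe sets were called. The differences of the 7 probe sets without overlap were then 0.59 to 0.82, 0.48 to 0.76 and 0.39 to 0.70. Leaving out untreated arrays 1, 2 or 3 gave 3, 8 and 5 calls, where 0.908%, 11.8% and 1.20% of all were called. The 8 held 6 class II probe sets that were higher after withdrawal (2.62% of all) and both of B2m, which were lower (9.22% of all).

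After quantile normalization the range of the withdrawal arrays went from 0.44 to 0.07 in RT1-Da and from 0.42 to 0.05 in Cd74, but from 0.24 to 0.27 in RT1-Ba. RT1-Da then read 11.28, 11.31 and 11.35 after withdrawal against 10.41, 10.41 and 10.51 without treatment, and Cd74 11.44, 11.42 and 11.47 against 10.63, 10.70 and 10.75. The same 7 probe sets were higher without overlap, as were 9.75% of all tested probe sets, and both B2m probe sets were lower without overlap, as were 11.6% of all. In the fit of these 6 arrays, a combination added after the data were seen, all 7 class II probe sets with no overlap were called higher, where 2.70% of all tested probe sets were called and 1.32% higher. The differences ran from 0.58 ± 0.12 (RT1-Db1, 1370382_at, limma adjusted p = 0.027) to 0.96 ± 0.11 (RT1-Ba, adjusted p = 0.00142). In the fit of all 9 quantile normalized arrays 0 of the 14 were called (0.420% of all), with 6 of the 14 at an unadjusted p under 0.05.

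**Figure D2:**
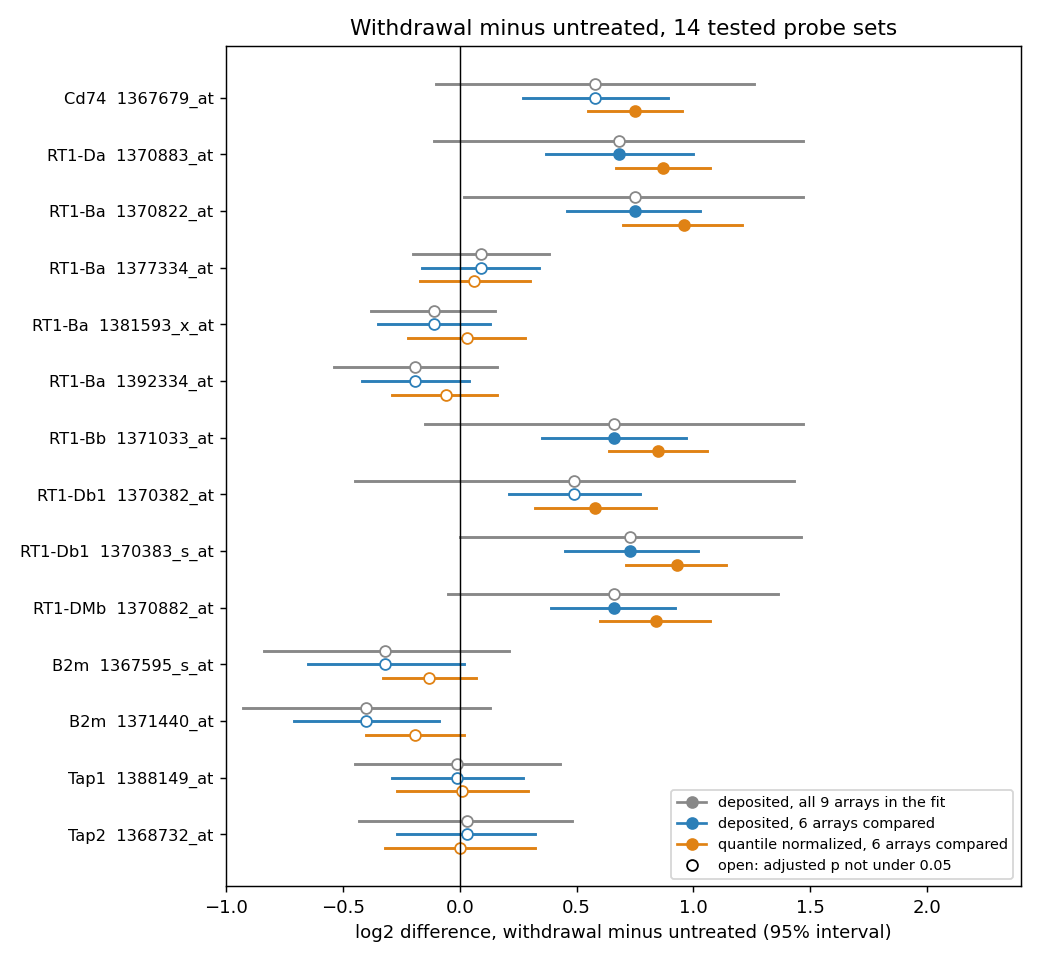
Log2 differences of withdrawal minus untreated (horizontal axis) with 95% intervals for the 14 tested probe sets, from the limma fit of all 9 arrays (grey), of the 6 arrays compared (blue) and of the same 6 after quantile normalization (orange); filled points have an adjusted p under 0.05. The points of Cd74, RT1-Da, RT1-Ba (1370822_at), RT1-Bb, RT1-Db1 and RT1-DMb lie from 0.49 to 0.96 in all 3 fits, and the intervals of the 9-array fit are the widest.

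In these 7 probe sets the treated group had the widest spread of the 3 groups, as it did in 65.0% of all tested probe sets. Its range was 1.62 in Cd74, 1.96 in RT1-Da, 1.79 in RT1-Ba, 2.01 in RT1-Bb, 1.82 and 2.29 in RT1-Db1 and 1.76 in RT1-DMb. Withdrawal ranges of the same probe sets were 0.19 to 0.44 and untreated ranges 0.35 to 0.54. A treated range above 1 was seen in 6.81% of all tested probe sets, and the order of these 7 probe sets, with the second treated array lowest and the first highest, in 27.1%.

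The comparison of treated with untreated arrays gave no call among the 14 in the 9-array limma fit, where 28.1% of all tested probe sets were called, 20.9% higher and 7.24% lower. Of the 14, 3 had an unadjusted p under 0.05, against 8765 of all 20695. For the class II genes the result depended on which treated array was in the fit. Without the second treated array 6 of the 14 were called higher (of all tested probe sets 30.4% were called, 22.5% higher): Cd74, RT1-Da, RT1-Ba, RT1-Bb, RT1-Db1 (1370383_s_at) and RT1-DMb, by 0.95 to 1.13. Without the first, none of these was called, and 1 other was, B2m (1371440_at), at -0.50 ± 0.17 (limma adjusted p = 0.0398), where 30.5% of all were called and 10.2% lower.

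After quantile normalization the first treated array read above, and the second below, all 3 untreated arrays in each of the 7 class II probe sets. RT1-Da, for example, read 11.25, 9.69 and 10.59 on the treated arrays against 10.41, 10.41 and 10.51 without treatment. Group means were then close, at 0.01 ± 0.23 for Cd74 and 0.06 ± 0.28 for RT1-Da, with 95% intervals of -0.49 to 0.52 and -0.56 to 0.69. Such intervals leave room for a difference of either sign.

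Withdrawal minus treated also had 0 of the 14 called in the 9-array limma fit, where 43.8% of all tested probe sets were called, and 1 of the 14 had an unadjusted p under 0.05, against 10814 of all. Deposited differences of the 7 class II probe sets were small, from -0.17 to 0.24. After quantile normalization 6 of the 14 were called higher after withdrawal, where 29.1% of all tested probe sets were called and 14.5% higher. They were Cd74 (0.74 ± 0.23, limma adjusted p = 0.0335), RT1-Ba (0.91 ± 0.25, adjusted p = 0.0203), RT1-Bb (0.87 ± 0.28, adjusted p = 0.036), RT1-Db1 (1370383_s_at, 0.95 ± 0.24, adjusted p = 0.0157), the RT1-Ba probe set 1381593_x_at and 1 of B2m. All 3 treated arrays then lay below all 3 withdrawal arrays in Cd74, RT1-Da, RT1-Ba, RT1-Bb and 1370383_s_at, and also in both B2m probe sets and in 1381593_x_at and 1392334_at of RT1-Ba, as did 20.7% of all tested probe sets. Leaving out the first treated array from the deposited values gave 4 calls, all higher after withdrawal (46.0% of all were called, 14.1% higher), in RT1-Ba, RT1-Bb and both RT1-Db1 probe sets.

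The F test over the 3 groups called 0 of the 14 on the deposited values and 37.0% of all tested probe sets. The smallest adjusted p was that of Tap2 (0.0931). On quantile normalized values it called 5 of the 14 and 24.5% of all, namely Cd74, RT1-Ba by 2 probe sets, RT1-Db1 and B2m.

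The proximal promoters of class II genes are known for a module in which an X box, bound by the RFX complex, lies a short way before a Y box, bound by NF-Y, and Ciita acts on the factors held there. The RefSeq promoter windows of assembly GRCr8, of 300 bases around the gene start, were found for 8 of the 9 genes, all but RT1-DMb. Stretches of 100 bases are shown for the class II chains, and further below for B2m, Tap1 and Tap2. Capitals mark matches to ACNGATG, letters taken for the X box, and to ATTGG, taken for the Y box, on either strand. They read 5′ to 3′ on the strand of the gene.
RT1-Da, chr20:4515301-4515400, plus strand: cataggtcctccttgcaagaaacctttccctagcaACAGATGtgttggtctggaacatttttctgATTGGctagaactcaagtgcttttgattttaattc
RT1-Db1, chr20:4560208-4560307, minus strand: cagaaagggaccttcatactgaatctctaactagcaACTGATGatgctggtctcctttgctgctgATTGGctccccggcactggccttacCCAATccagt
RT1-Bb, chr20:4604145-4604244, minus strand: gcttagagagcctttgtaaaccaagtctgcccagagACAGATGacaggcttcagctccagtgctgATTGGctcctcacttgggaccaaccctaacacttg
RT1-Ba, chr20:4576949-4577048, plus strand: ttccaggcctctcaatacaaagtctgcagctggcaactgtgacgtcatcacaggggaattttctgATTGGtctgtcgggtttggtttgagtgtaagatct

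In RT1-Da 23 bases lay between both matches, and in RT1-Db1 and RT1-Bb 22. A Y box match within 30 bases downstream of an X box match was found in 67 of the 33469 promoters of the table (0.2%). Among them were these 3 members, the class II genes RT1-DMa, RT1-Db2 and RT1-DOb, and the class I genes RT1-CE3, RT1-CE5, RT1-CE10 and RT1-M3-1. An X box match was found in 10.2% of promoters and a Y box match in 37.5%. RT1-Ba held the Y box letters without the X box letters in its window, and Cd74 held the Y box letters on the other strand. The X box letters were shortened after promoters had been seen, so these matches and shares are not a test. A match is a description of the letters, and binding was not measured.

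The class I pathway genes were searched for GAAANNGAA, letters of the interferon-stimulated response element, which 9.71% of promoters hold on either strand. B2m, Tap1 and Tap2 each held a match, in capitals below, and Cd74, RT1-Da, RT1-Ba, RT1-Bb and RT1-Db1 held none in their 300 bases. The Tap1 match is on the other strand. These letters too were shortened after promoters had been seen, so the split between the genes is not a test.
B2m, chr3:129549135-129549234, plus strand: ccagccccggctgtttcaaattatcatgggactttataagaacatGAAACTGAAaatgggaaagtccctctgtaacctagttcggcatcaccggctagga
Tap1, chr20:4668609-4668708, minus strand: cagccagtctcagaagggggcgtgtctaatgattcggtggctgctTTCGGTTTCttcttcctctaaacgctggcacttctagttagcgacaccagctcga
Tap2, chr20:4652283-4652382, minus strand: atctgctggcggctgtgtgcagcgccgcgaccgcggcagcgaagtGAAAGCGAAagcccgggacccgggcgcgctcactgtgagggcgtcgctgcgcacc

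The class I pathway genes did not share the withdrawal pattern of the class II genes. B2m, measured by 2 probe sets, was lower after withdrawal than without treatment by 0.32 and 0.40 as deposited, with overlap between the groups and no call. After quantile normalization the groups did not overlap, and the differences were -0.13 and -0.19, also not called. Tap1 and Tap2 were highest on the first treated array and close together in the other groups.

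B2m (1367595_s_at) read 12.36, 11.31 and 11.79 on the treated arrays, 11.41, 11.43 and 11.82 after withdrawal and 11.86, 11.56 and 12.19 in untreated islets. The other B2m probe set (1371440_at) read 10.73, 9.61 and 10.05, then 9.78, 9.84 and 10.17, and then 10.47, 10.02 and 10.50. In both the first treated array was highest and the second lowest of all 9, as in RT1-Da, RT1-Bb, both RT1-Db1 probe sets and 1370822_at of RT1-Ba, but the withdrawal arrays lay mostly below the untreated ones. Withdrawal minus untreated was -0.32 ± 0.24 (limma adjusted p = 0.843) and -0.40 ± 0.24 (adjusted p = 0.79).

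Quantile normalization turned the B2m values of treated islets. The treated values of 1371440_at became 9.99, 9.39 and 9.74, below all withdrawal values (10.17, 10.28 and 10.34) and all untreated values (10.51, 10.39 and 10.46). Treated minus untreated was then -0.75 ± 0.14 (limma adjusted p = 0.00694), against -0.20 ± 0.24 as deposited, and withdrawal minus treated was 0.56 ± 0.14 (adjusted p = 0.0143), against -0.20 ± 0.24. For 1367595_s_at treated minus untreated was -0.55 ± 0.16 (adjusted p = 0.0381), against -0.05 ± 0.24 as deposited. With the RT1-Ba probe set 1381593_x_at (-0.67 ± 0.14, adjusted p = 0.0112) these were the 3 of the 14 called between treated and untreated arrays after this step, where 17.2% of all tested probe sets were called, 7.75% higher and 9.44% lower. Both B2m probe sets are among the brightest 2% of the array, as are Cd74, RT1-Da and 1371033_at of RT1-Bb.

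Tap1 (1388149_at) read 7.60, 6.79 and 6.92 on treated arrays, 6.45, 6.59 and 6.97 after withdrawal and 6.71, 6.66 and 6.68 without treatment. All treated values lay above all untreated ones, as did 31.2% of all tested probe sets, and treated minus untreated was 0.42 ± 0.20 (limma adjusted p = 0.131). Tap2 (1368732_at) read 6.03, 5.67 and 5.15, then 4.92, 5.12 and 5.27, and then 5.18, 4.79 and 5.27. Its treated minus untreated difference was 0.53 ± 0.21 (adjusted p = 0.0742), and withdrawal minus treated was -0.51 ± 0.21 (adjusted p = 0.0675). Tap2 kept these sizes after quantile normalization (0.55 and -0.55, adjusted p = 0.0775 and 0.0573). Without the third treated array Tap2 was called in both comparisons, at 0.77 ± 0.18 (adjusted p = 0.0176) and -0.74 ± 0.18 (adjusted p = 0.0108). Of all tested probe sets 26.8% were called in the first of these fits, 20.8% higher, and 42.7% in the second, 32.9% lower. The untested Tap1 probe set (1375379_at) read between 3.73 and 4.31 and was lowest on the first treated array, where 1388149_at was highest.

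The cells that carry class II molecules were followed by marker lists on the same arrays. The 18 measured macrophage and myeloid markers had a mean of 8.05, 6.57 and 7.24 on treated arrays 1, 2 and 3, of 7.58, 7.65 and 7.79 after withdrawal and of 7.22, 7.14 and 7.27 without treatment. The mean of 5 class II members, Cd74, RT1-Da, RT1-Ba, RT1-Bb and RT1-Db1, was 11.19, 9.35 and 10.33, then 10.27, 10.35 and 10.60, and then 9.77, 9.45 and 9.95. As deposited, both means thus had the first treated array highest, the second lowest, and all withdrawal arrays above all untreated arrays. After quantile normalization the first treated array (7.69) lay below the withdrawal arrays (7.76, 7.86 and 7.87) in the macrophage mean. Not every marker followed the mean, and Aif1 was lowest on the first treated array as deposited. Of the macrophage markers, Adgre1 and Cd163 lay in the dimmest 33.3% of the array.

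In the fit of withdrawal and untreated arrays 7 of 16 tested macrophage and myeloid markers rose after withdrawal and none fell, and all 16 differences were above 0. For scale, 126 of 11619 genes rose and 220 fell in that fit. Mrc1, the mannose receptor of tissue macrophages, rose by 1.33 ± 0.12 (limma adjusted p = 5.14e-05), Tyrobp by 0.70 ± 0.12 (adjusted p = 0.00702), Ptprc, the pan-leukocyte CD45, by 0.62 ± 0.12 (adjusted p = 0.0164) and Cd68 by 0.61 ± 0.12 (adjusted p = 0.0188). Csf1r, Fcer1g and C1qb rose by 0.50 to 0.55. Among dendritic cell markers 1 of 6 tested rose, the lectin Clec10a (1.15 ± 0.12, adjusted p = 0.000112), which some macrophages also make. In the fit of all 9 arrays none of these markers was called for withdrawal minus untreated. The part of these cells in the class II difference was not tested.

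Lymphocyte markers followed another order on the treated arrays. The mean of 5 B cell markers was 5.76, 6.04 and 6.06 on treated arrays, 6.61, 6.41 and 6.28 after withdrawal and 6.19, 6.53 and 6.23 without treatment, so the first treated array was the lowest of all. The mean of 10 T cell markers was 5.44, 5.32 and 5.49 on treated arrays, 5.86, 5.94 and 5.76 after withdrawal and 5.65, 5.73 and 5.68 without treatment. As in the class II mean, the second treated array was lowest and all withdrawal arrays lay above all untreated ones. The first treated array, highest in the class II mean, here lay below all untreated arrays. No B or T cell marker was called between withdrawal and untreated arrays in the fit of these 6. In the fit of all 9 arrays 3 of 3 tested B cell markers and 3 of 8 T cell markers were lower in treated than in untreated islets, beside 667 of 11619 genes.

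**Figure D3:**
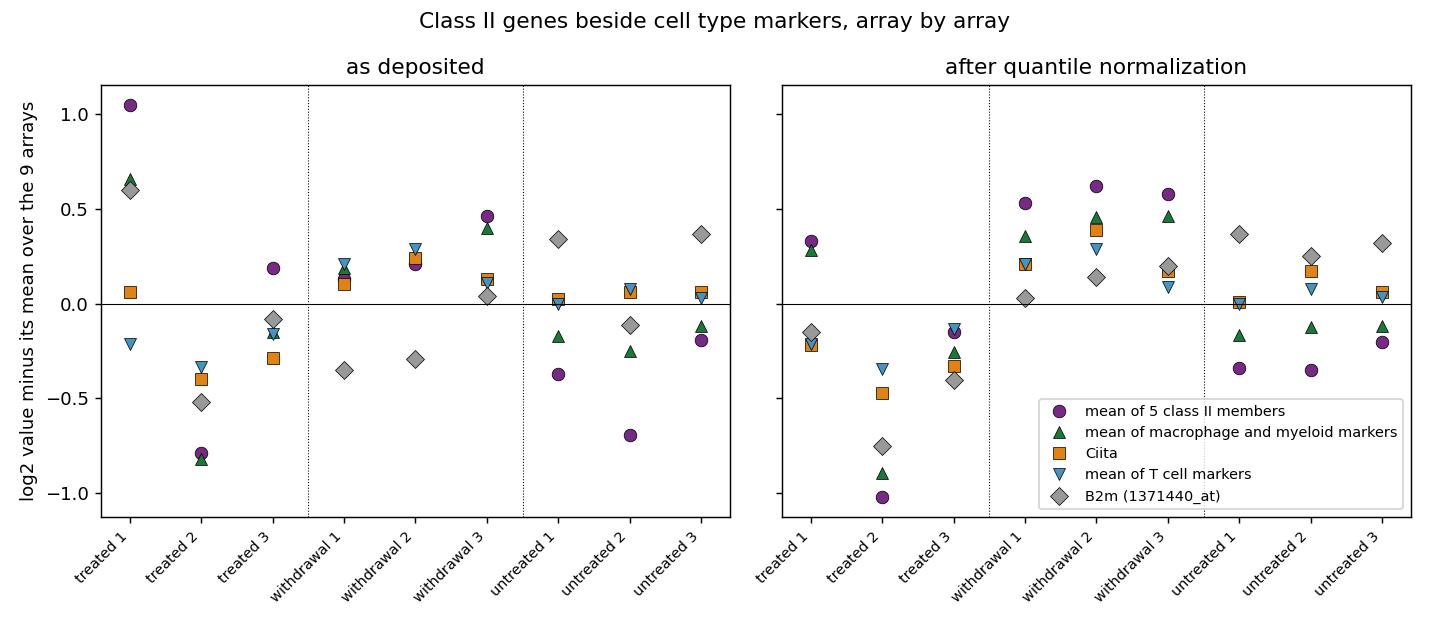
Log2 value minus its mean over the 9 arrays (vertical axis) for the mean of 5 class II members (Cd74, RT1-Da, RT1-Ba, RT1-Bb and RT1-Db1), the means of macrophage and myeloid and of T cell markers, Ciita and B2m (1371440_at), array by array, as deposited (left) and after quantile normalization (right). In both panels the class II and macrophage points are lowest on the second treated array, above 0 on all withdrawal arrays and below 0 on all untreated arrays, while B2m is above 0 on untreated arrays 1 and 3.

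Genes with the array profile most like the mean of Cd74, RT1-Da, RT1-Ba, RT1-Bb and RT1-Db1 were sought among 11610 tested genes. Profiles were compared after quantile normalization, by the root mean square difference of centred log2 values over the 9 arrays. The 6 nearest were Ms4a6bl1 (0.096), Plod2 (0.098), RT1-DMa (0.116), Tpm2 (0.118), Vim (0.122) and Cd68 (0.122), against a median of 0.564 over all genes and 0.521 for a gene that does not vary. RT1-DMa is the alpha chain that pairs with RT1-DMb, and Cd68 is a lysosomal protein of macrophages. Plod2, Tpm2 and Vim encode a collagen-modifying enzyme, a tropomyosin and the intermediate filament vimentin. These distances describe 9 arrays that share their processing.

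Other genes of the pathway were taken from 8 lists with 77 genes, of which 55 were on the array and 51 were tested. In treated islets 13 of the 51 were higher than in untreated ones and none was lower, beside 2784 higher and 667 lower of 11619 genes. After withdrawal 3 were higher and 13 lower than in treated islets, beside 983 and 4401 of all genes. Withdrawal minus untreated had 0 of the 51 called, beside 1 higher and 22 lower of all genes. The medians of the 51 were 0.30, -0.24 and 0.02 in these comparisons, in the order given, close to the medians of all genes at 0.22, -0.27 and -0.04. Quantile normalization turned both balances. In treated islets 2 of the 51 were then higher than in untreated ones and 6 lower (886 and 1032 of all genes), and after withdrawal 10 were higher and 4 lower than in treated islets (1548 and 1654 of all genes). Their medians became 0.00 and 0.18, beside 0.02 and -0.04 over all genes.

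Of 6 tested genes of peptide loading in the endoplasmic reticulum, 4 rose in treated islets, namely the chaperone calnexin (Canx, 0.76), the thiol oxidoreductase Pdia3 (0.79), the chaperone Hspa5 (0.62) and tapasin (Tapbp, 0.35), which bridges the transporter to class I. After withdrawal Canx (-1.06), Pdia3 (-1.10), Hspa5 (-0.81) and calreticulin (Calr, -0.61) were lower than in treated islets. Pdia3 read 11.89, 11.45 and 11.51 on treated arrays, 10.61, 10.36 and 10.59 after withdrawal and 10.96, 10.57 and 10.94 without treatment, so its treated values lay above all others. Canx, Pdia3, Hspa5 and Calr serve all secretory proteins and not class I alone. After quantile normalization none of the 6 was called between treated and untreated islets, and Canx and Pdia3 (-0.26 and -0.33) were still called for withdrawal minus treated, while Hspa5 (-0.11) and Calr (0.16) were not.

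Of the 5 immunoproteasome genes, Psmb10 (0.40), Psme1 (0.71) and Psme2 (0.64) rose in treated islets and were lower after withdrawal (-0.55, -0.56 and -0.52). Psmb8 and Psmb9, catalytic subunits whose genes lie beside Tap1 and Tap2, did not pass in either comparison. None of the 5 was called after quantile normalization, when withdrawal minus treated was -0.13 in Psmb10, 0.20 in Psme1 and 0.15 in Psme2. Psmb8, like the class II genes, was highest on the first treated array and lowest on the second, but its withdrawal and untreated values overlapped, with 7.52, 6.17 and 6.71 on treated arrays, 6.85, 6.80 and 6.95 after withdrawal and 6.66, 6.54 and 6.88 without treatment.

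RT1-DMa, the 1 accessory class II gene measured, read 9.19, 7.15 and 7.86 on treated arrays, 8.28, 8.33 and 8.46 after withdrawal and 7.49, 7.52 and 7.85 without treatment. It was the 1 gene of the 51 called in the fit of withdrawal and untreated arrays (0.74 ± 0.12, limma adjusted p = 0.00531). Among 7 genes of endosomal proteolysis, cathepsin L (Ctsl, 0.64) and cathepsin D (Ctsd, 0.46) rose in treated islets, and Ctsl (-0.67) and cathepsin H (Ctsh, -0.58) were lower after withdrawal. Each of these calls was lost after quantile normalization. Treated minus untreated was then 0.07 in Ctsl and -0.12 in Ctsd, withdrawal minus treated was 0.13 in Ctsl and 0.17 in Ctsh, and Ctsd was called higher after withdrawal than in treated islets (0.39). Cathepsin S (Ctss), which trims the invariant chain, read 10.32, 8.29 and 9.25 on treated arrays, 9.49, 9.76 and 9.92 after withdrawal and 9.31, 9.28 and 9.39 without treatment. It was higher after withdrawal than in treated islets by 1.14 ± 0.28 once the arrays were quantile normalized (limma adjusted p = 0.0126), against 0.44 ± 0.36 as deposited (adjusted p = 0.345).

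Ciita, the transactivator of class II genes, did not follow the class II genes array by array. It read 7.25, 6.79 and 6.90 on treated arrays, 7.29, 7.43 and 7.32 after withdrawal and 7.21, 7.25 and 7.25 without treatment. As deposited, its withdrawal values lay above all others, and on the first treated array, where the class II genes peaked, it lay within the untreated range. After quantile normalization that array (6.99) lay below the untreated ones (7.22, 7.38 and 7.27). The class II mean was then highest on the withdrawal arrays (10.68, 10.77 and 10.73, against 10.48 on the first treated array). Both Ciita (6.74) and the class II mean (9.13) were then lowest on the second treated array. Ciita was higher after withdrawal than in treated islets by 0.37 ± 0.14 (limma adjusted p = 0.0453), and by 0.60 ± 0.11 after quantile normalization (adjusted p = 0.00409), when it was also lower in treated than in untreated islets (-0.42 ± 0.11, adjusted p = 0.0254). Its withdrawal minus untreated difference was 0.11 ± 0.14 (adjusted p = 0.907).

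Of the factors that bind the X and Y boxes, Rfxap (0.77) and Nfyb (0.50) rose in treated islets, and Rfxap (-0.96), Nfyb (-0.48) and Nfyc (-0.35) were lower after withdrawal than in treated islets. After quantile normalization Rfxap kept both calls (0.72 and -0.94). Nfyb (0.35 and -0.32) was then called in neither comparison, and withdrawal minus treated was 0.13 in Nfyc, not called. Of 8 tested genes of interferon gamma signalling, the kinase Jak1 rose in treated islets (0.43), and its difference was -0.10 after quantile normalization, not called, when it was higher after withdrawal than in treated islets (0.34, against -0.37 as deposited, not called). Ifng itself and the class I transactivator Nlrc5 lay in the dimmest 33.3% of the array. Of 3 tested costimulatory genes, Cd86, a ligand of CD28, was higher after withdrawal than in treated islets (0.41 as deposited, 0.33 after quantile normalization).

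Among 13 tested class I chains and relatives RT1-CE16 rose in treated islets (0.92) and was lower after withdrawal (-0.87), and RT1-N3 was higher after withdrawal than in treated islets (0.42), which was 0.33 and not called after quantile normalization. RT1-CE16 read 5.29, 5.93 and 6.64 on treated arrays, 5.10, 5.20 and 4.94 after withdrawal and 4.81, 5.37 and 4.93 without treatment, and its probes may be shared with other class I genes. After quantile normalization RT1-CE10 (-0.64), RT1-T24-3 (-0.59), RT1-CE12 (-0.43), RT1-S3 (-0.42) and the neonatal Fc receptor Fcgrt (-0.32) were lower in treated than in untreated islets, and RT1-CE16 was higher (0.94). As deposited, none of those 5 was called, and the differences of RT1-CE12 (0.12) and Fcgrt (0.05) had the opposite sign.

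**Figure D4:**
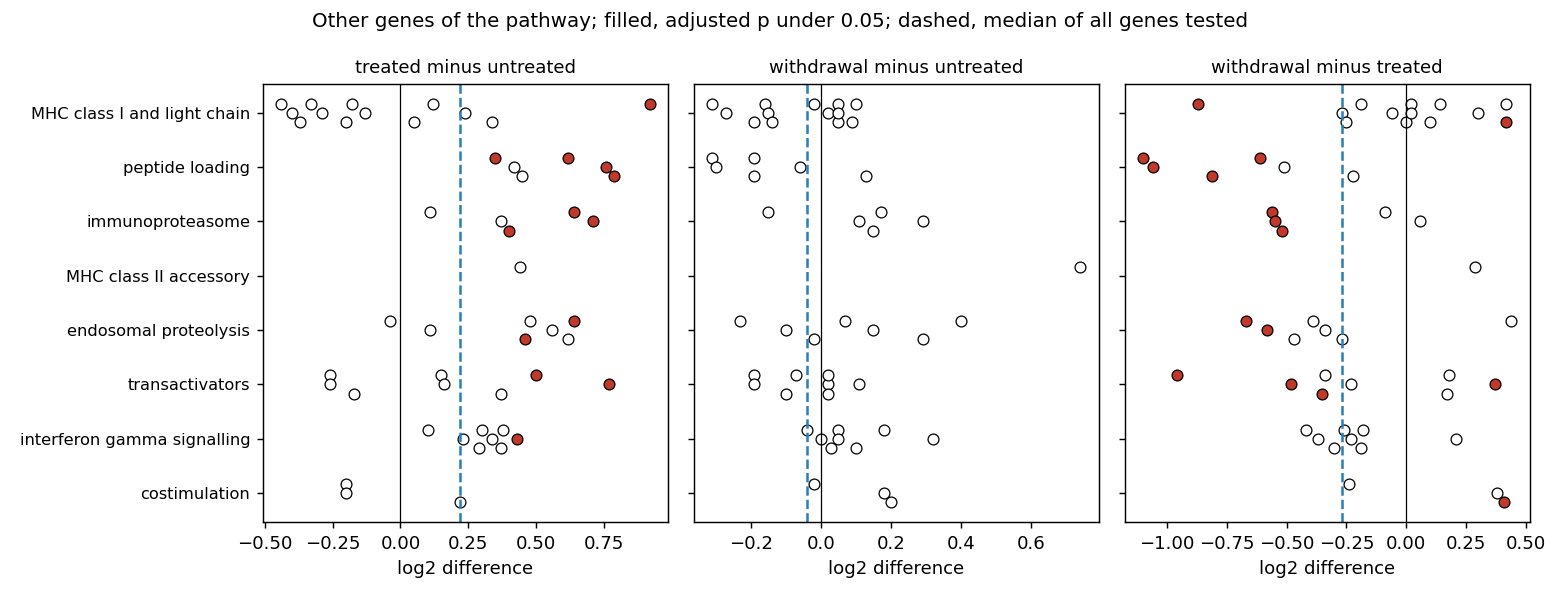
Log2 differences (horizontal axis) of the 51 tested genes of 8 pathway lists in the 3 comparisons, from the limma fit of all 9 arrays as deposited; filled points have an adjusted p under 0.05 and the dashed line is the median of all genes tested. In treated minus untreated 13 points are filled, all above 0, in withdrawal minus untreated none, and in withdrawal minus treated 16, of which 13 lie below 0; after quantile normalization, not plotted, these counts were 8 (2 above 0), 0 and 14 (4 below 0).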

How the data were processed

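Total RNA from 20 to 30 mg of islets was hybridised to 9 arrays, 3 in each of 3 groups, labelled as biological replicates. The deposited log2 expression values, 1 per probe set and array, were used as they were. Their scale was inferred from their range (2.58 to 14.36). RMA and MAS5 are named, per the submitters' processing notes, with no role or version given in the sources used here. Of 31099 probe sets, 57 controls were left out. Genes were named from the platform annotation, updated through the RefSeq gene table of GRCr8: 20826 probe sets had 1 symbol, 436 several and 9780 none listed here, and the last 2 kinds were not named. Probe sets in the lowest 33.3% by mean were not tested, which kept 20695.

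Differences came from lmFit and eBayes of limma 3.58.1 under R 4.3.3 (1 term a group, all 9 arrays, no covariate), two-sided, with Benjamini-Hochberg adjustment over all 20695. An adjusted p under 0.05 is a call. A pathway or marker gene was read from its brightest probe set. All 16 member probe sets are named. Of the pathway lists, genes past the threshold were named, up to 6 a list and comparison, largest difference first, with the 6 genes nearest in profile. Psmb8, Ctss, the marker genes and those called on quantile normalized values were named after their values were seen. The members and the lists were chosen with earlier results of these data known.

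Alternatives were quantile normalization, no filter, a filter on the lowest 50%, a fit of the 6 arrays compared, array weights, the replicate number as a block and each array left out in turn. Combinations of quantile normalization with the 6 arrays or without the first treated array, and the 6 arrays with each left out, were added after the data were seen. Same-numbered arrays did not deviate together in every pair, so the numbers were not taken as pairs. The tests were checked on simulated data in which a probe set had the same spread in every group. The check therefore does not cover the wider treated spread of the class II probe sets. The number of arrays limits the precision. Promoter letters were searched with Python 3.11.15. Longer forms of the X box and interferon element letters were searched first and then shortened, after promoters had been seen, which made the matches looser and more frequent. The stretches shown were chosen around the matches. Figures were drawn with matplotlib 3.10.9.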

Additional observations from a re-analysis of the deposited data

How the results depend on the processing

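The 42 member differences were estimated again under the other settings, which gave 792 values. Of the 42, 22 turned sign under at least 1 setting. The counts of called members, 0 in each comparison of groups and in the F test as deposited, were for treated minus untreated, withdrawal minus untreated, withdrawal minus treated and the F test 3, 0, 6 and 5 with quantile normalization, and 3, 7, 1 and 8 with array weights. Of all tested probe sets, 17.2%, 0.420%, 29.1% and 24.5% were called with quantile normalization, and 34.7%, 15.8%, 54.3% and 55.0% with array weights. Quantile normalization without the first treated array gave 3, 7, 10 and 10 (22.2%, 1.91%, 32.8% and 29.9% of all tested probe sets). For the 3 comparisons of groups, the fit of the 6 arrays compared gave 0, 5 and 0 (15.5%, 2.39% and 37.4% of all tested probe sets). With quantile normalization it gave 2, 7 and 4 (9.22%, 2.70% and 22.7% of all). Leaving out 1 array gave 0 to 6, 0 to 8, 0 to 4 and 0 to 8. The extremes came without treated array 2, without untreated array 2 in the fit of 6, and without treated array 1 for the last 2. Of all tested probe sets 30.4%, 11.8%, 46.0% and 41.6% were called at these extremes. Counts of called pathway genes, 13, 0 and 16 as deposited, were 8, 0 and 14 with quantile normalization (2 higher and 6 lower, 0, and 10 higher and 4 lower, against 13 and 0, 0, and 3 and 13), 4, 1 and 10 with the 6 arrays compared, 15, 5 and 24 with array weights, 3, 3 and 8 with quantile normalization of the 6 arrays, 12, 1 and 24 with quantile normalization without the first treated array, and 3 to 19, 0 to 4 and 7 to 20 with 1 array left out. The replicate block, over numbers that were not shown to pair the arrays, gave 0 called members in every comparison and 13, 0 and 16 pathway genes. With this block 31.0%, 0.242% and 45.6% of all tested probe sets were called.

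Treated minus untreated turned sign with quantile normalization in RT1-Bb and RT1-Db1 (1370383_s_at), both -0.02, with all 9 or with 6 arrays. With the first treated array also left out it was -0.26 in Cd74, -0.30 in RT1-Da, -0.21 in RT1-Ba, -0.36 in RT1-Bb, -0.14 and -0.31 in RT1-Db1 and -0.01 in RT1-DMb. Withdrawal minus treated became 0.42 and 0.56 in B2m, 0.19 in RT1-Db1 (1370382_at) and 0.54 in RT1-DMb with quantile normalization (all 9 or 6 arrays), and 0.59, 0.70, 0.72 and 0.85 with the first treated array left out too. With array weights it was 0.27 in RT1-Db1, 0.12 in RT1-DMb and -0.05 in RT1-Ba (1392334_at). Withdrawal minus untreated differences near 0 also turned, to 0.00 in Tap2, 0.03 in RT1-Ba (1381593_x_at) and 0.01 in Tap1 with the quantile settings and -0.08 in Tap2 with array weights. In the fit of 6 arrays Tap2 was -0.06 without the third withdrawal array and -0.12 without the second untreated array. With 1 array left out, treated minus untreated spanned 0 in B2m (-0.32 to 0.21 and -0.50 to 0.06) and RT1-Db1 (-0.04 to 1.11), and withdrawal minus untreated in Tap2 (-0.12 to 0.12) and Tap1 (-0.16 to 0.10). Withdrawal minus treated spanned 0 in Cd74 (-0.41 to 0.40), RT1-Db1 (-0.62 to 0.53 and -0.22 to 0.69), RT1-Ba (-0.31 to 0.58 and -0.16 to 0.18), RT1-DMb (-0.47 to 0.41), RT1-Da (-0.42 to 0.56), RT1-Bb (-0.40 to 0.60) and B2m (-0.52 to 0.00 and -0.46 to 0.10). The cause was not tested. An offset before taking logarithms was not run, since the values are logarithms.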
